A study of Homo sapiens with 16 samples.

Results

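The serine and folate one-carbon enzymes examined here are 9 genes, chosen by name and read in both deposited expression tables, of the 13559 genes listed in the first experiment and the 14024 listed in the second. All 9 were listed in both tables. PHGDH, PSAT1 and PSPH encode the successive enzymes that make serine from a glycolytic intermediate in the cytosol. SHMT1 and MTHFD1 encode cytosolic folate enzymes, and SHMT2, MTHFD2, MTHFD1L and ALDH1L2 encode enzymes of the mitochondrial branch. The comparison of interest was the cytosolic against the mitochondrial steps across all 8 groups of libraries.

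Serine hydroxymethyltransferase splits serine into glycine and a carbon unit carried on folate. The mitochondrial branch oxidizes that unit to formate, which leaves the mitochondria, and MTHFD1 in the cytosol takes it up for the synthesis of purines and thymidylate. Genes of serine synthesis and of the mitochondrial branch are known targets of ATF4, a transcription factor that is translated when amino acids are short or other stress pathways are active. MTHFD2 is known for its high level in many tumors and its low level in most adult tissues.

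The libraries were made from LN229, an established human glioblastoma cell line. In the first experiment, cells were kept in regular culture or in ischemic culture with no added agent. In the second experiment, each culture received DMSO (the solvent control), VX745 (an inhibitor of p38α) or MK25 (an inhibitor of MK2, a kinase that p38 activates), so that the groups were regular DMSO, regular VX745, regular MK25, ischemic DMSO, ischemic VX745 and ischemic MK25. Ischemic culture combined a shortage of glucose, glutamine and serum with low oxygen. Each of the 8 groups had 2 libraries, and all 16 came from this single line with no genetic change. The labels give no dose and no exposure time and do not say whether the libraries of a group came from separate cultures, so the p-values measure only the spread between these libraries.

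The values are log2 CPM, the reads of a gene scaled to a library total that the authors' normalization had adjusted. The reads on listed genes numbered 22346073 to 28373993 per library of the first experiment and from 20122017 to 37562668 in those of the second. Read numbers were high for every enzyme gene, with the lowest at 205 reads for ALDH1L2 and at 836 to 5902 reads for the others. The glioma markers VIM, CD44 and NES were high in all libraries, and GFAP did not exceed 1.06. SOX2 lay between 3.13 and 3.93 in ischemic and between 5.59 and 6.47 in regular libraries. OLIG2 was low, between 0.94 and 2.85 in ischemic and between 2.62 and 3.09 in regular libraries. PTPRC, PECAM1, CDH5, EPCAM and RBFOX3, which define blood, endothelial, epithelial and neuronal cells, were not listed, while CD68 (4.47 to 6.01), KRT14 (1.76 to 3.38) and SYT1 (3.69 to 6.31) were, with CD68 and SYT1 higher in every ischemic library than in any regular library of the same experiment. Their part in the results was not tested. The hypoxia-induced carbonic anhydrase gene CA9 lay between 6.86 and 7.70 in ischemic libraries and at most at 2.30 in regular ones. VEGFA, which encodes an angiogenic growth factor, lay between 8.82 and 9.80 in ischemic libraries and between 4.89 and 6.40 in regular ones.

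By RefSeq on GRCh38.p14, the serine synthesis genes are PHGDH (Entrez 26227) at chr1:119711934-119744215 on the plus strand, PSAT1 (Entrez 29968) at chr9:78297125-78330093 on the plus strand and PSPH (Entrez 5723) at chr7:56011064-56051444 on the minus strand. The cytosolic folate genes are SHMT1 (Entrez 6470) at chr17:18327873-18363550 on the minus strand and MTHFD1 (Entrez 4522) at chr14:64388353-64460025 on the plus strand. The mitochondrial genes are SHMT2 (Entrez 6472) at chr12:57229711-57234935 on the plus strand, MTHFD2 (Entrez 10797) at chr2:74198615-74217565 on the plus strand, MTHFD1L (Entrez 25902) at chr6:150865702-151101887 on the plus strand and ALDH1L2 (Entrez 160428) at chr12:105019790-105084458 on the minus strand. Values were summed over each gene by the authors and do not separate exons or isoforms.

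The promoter windows of both cytosolic folate genes and of MTHFD2 and MTHFD1L are shown because these genes moved differently in the data. Windows run from 250 bases before to 50 bases after the annotated start and are taken from RefSeq on GRCh38.p14. They are printed in the direction of transcription at chr17:18363501-18363800 (minus strand) for SHMT1, chr14:64388103-64388402 (plus strand) for MTHFD1, chr2:74198365-74198664 (plus strand) for MTHFD2 and chr6:150866236-150866535 (plus strand) for MTHFD1L, the first of 4 listed windows of that gene. Capitals mark matches, on either strand, to CCAAT (the NF-Y box), CACGTG (the E-box bound by MYC and related factors), ACGTG (the core of hypoxia response elements, which lies inside CACGTG), TGACNNNGC (the core of antioxidant response elements) and TGATGCAA (the composite element of ATF4 and C/EBP).
SHMT1: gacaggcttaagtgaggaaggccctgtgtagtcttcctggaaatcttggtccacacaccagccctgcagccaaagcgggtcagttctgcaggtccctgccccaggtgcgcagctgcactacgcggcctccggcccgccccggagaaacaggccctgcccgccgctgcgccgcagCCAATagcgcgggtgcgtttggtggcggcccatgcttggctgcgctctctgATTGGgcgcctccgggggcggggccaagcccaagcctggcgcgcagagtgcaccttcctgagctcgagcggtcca
MTHFD1: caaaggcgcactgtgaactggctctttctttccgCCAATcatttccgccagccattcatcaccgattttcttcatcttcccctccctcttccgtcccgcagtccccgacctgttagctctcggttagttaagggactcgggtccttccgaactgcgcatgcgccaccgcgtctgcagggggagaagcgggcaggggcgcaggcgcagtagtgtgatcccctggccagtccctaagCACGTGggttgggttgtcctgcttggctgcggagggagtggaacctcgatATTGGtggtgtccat
MTHFD2: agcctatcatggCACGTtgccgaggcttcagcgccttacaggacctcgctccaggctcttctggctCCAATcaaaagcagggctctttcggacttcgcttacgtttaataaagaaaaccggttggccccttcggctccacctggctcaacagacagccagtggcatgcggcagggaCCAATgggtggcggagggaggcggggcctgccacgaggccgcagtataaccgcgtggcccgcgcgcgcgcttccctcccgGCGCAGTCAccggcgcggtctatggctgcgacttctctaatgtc
MTHFD1L: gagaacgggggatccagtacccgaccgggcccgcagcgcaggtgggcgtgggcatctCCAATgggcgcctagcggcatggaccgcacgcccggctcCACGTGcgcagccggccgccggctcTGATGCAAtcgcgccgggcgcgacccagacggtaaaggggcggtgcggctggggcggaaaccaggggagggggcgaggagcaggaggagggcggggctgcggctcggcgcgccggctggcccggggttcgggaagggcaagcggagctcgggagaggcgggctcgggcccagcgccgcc

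Of the 6 member genes with a window in the table (PHGDH, PSAT1, SHMT1, MTHFD1, MTHFD2 and MTHFD1L), 1 held TGATGCAA, namely MTHFD1L. The match lay 129 bases before the start in the window shown. It lay 24 bases after the start in window 2, 90 before it in window 3, and window 4 had none. TGATGCAA was present in 0.866% of all 35116 promoter windows of the same length, and its form with 1 free base (TGATGNAA) in 3.62% of them. These shares are per window, whereas MTHFD1L has 4 windows. CACGTG was found in MTHFD1 and MTHFD1L and in 7.26% of all windows. ACGTG was found in MTHFD1, MTHFD2 and MTHFD1L and in 21.4% of all windows, TGACNNNGC in MTHFD2 and in 13.3%, and CCAAT in all 6 and in 34.6%. Thus the E-box was shared by a cytosolic and a mitochondrial gene, and no motif searched here separated the cytosolic pair from the mitochondrial pair. A match is a description of these letters only.

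Ischemic culture was first compared with regular culture without inhibitor. All 3 serine synthesis genes and all 4 mitochondrial folate genes rose in ischemic culture in both experiments, by at least 1.5-fold (limma, adjusted p under 0.05), and both cytosolic folate genes stayed below that size. The background was large. In the first experiment, 21.3% of all 13559 genes passed this rule upward and 20.2% downward. In the second, with DMSO in both cultures, 18.1% passed upward and 17.9% downward. Without the fold threshold, 35.2% of genes rose and 35.2% fell in the first experiment, and 34.4% rose and 35.2% fell in the second. The median change over the 9 members was 1.78 (first experiment) and 1.90 (second) on the log2 scale, against -0.01 over all genes in each. Differences below are log2 differences between group means of CPM, with the standard error (SE) of the fit and 2 libraries per group.

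PHGDH, phosphoglycerate dehydrogenase, catalyzes the first step of serine synthesis. Its level was 7.52 and 7.48 log2 CPM in regular and 9.70 and 9.75 in ischemic libraries of the first experiment. In the second, it was 7.49 and 7.44 in regular DMSO and 9.78 and 9.77 in ischemic DMSO libraries. The groups were far apart in both experiments, with a rise of 2.23 (SE 0.06, adjusted p = 3.78e-11, limma) and of 2.31 (SE 0.05, adjusted p = 1.22e-16). PSAT1, the phosphoserine aminotransferase of the second step, lay between 6.27 and 6.54 in the 4 regular libraries without inhibitor and between 8.08 and 8.44 in the 4 ischemic ones. It rose by 1.78 (SE 0.07) and 2.02 (SE 0.07). PSPH, the phosphatase that releases serine, lay between 5.54 and 5.63 in regular and between 7.19 and 7.42 in ischemic libraries and rose by 1.75 (SE 0.07) and 1.62 (SE 0.06). The 3 steps of serine synthesis therefore moved in the same direction in both experiments.

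The mitochondrial folate genes rose as well. SHMT2, the mitochondrial serine hydroxymethyltransferase, was at 7.90 and 7.89 in regular and 9.70 and 9.69 in ischemic libraries of the first experiment. With DMSO it was at 7.98 in both regular libraries and at 9.90 and 9.86 in the ischemic ones. Replicates lay close together, and the rise was 1.80 (SE 0.06, adjusted p = 2.22e-10, limma) and 1.90 (SE 0.06, adjusted p = 5.98e-15). MTHFD2, the mitochondrial dehydrogenase and cyclohydrolase, was at 6.82 and 6.63 in regular and 8.91 and 8.90 in ischemic libraries of the first experiment. With DMSO it was at 6.80 and 6.64 in regular and 9.07 and 9.04 in ischemic libraries. It rose by 2.18 (SE 0.07, adjusted p = 1.54e-10) and 2.33 (SE 0.06, adjusted p = 1.74e-15), with regular libraries spread more widely than ischemic ones. MTHFD1L, the mitochondrial enzyme that releases formate, lay between 6.47 and 6.64 in regular and between 8.11 and 8.23 in ischemic libraries and rose by 1.55 (SE 0.07) and 1.72 (SE 0.05).

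ALDH1L2, the mitochondrial formyltetrahydrofolate dehydrogenase, which yields NADPH, had the largest change of the 9 members in both experiments. Its level was 3.07 and 3.12 in regular and 7.53 and 7.33 in ischemic libraries of the first experiment. In the second, it was 3.30 and 3.19 in regular DMSO and 7.24 and 7.25 in ischemic DMSO libraries. The cultures were separated by a wide gap with little spread within each group. The rise was 4.33 (SE 0.09, adjusted p = 1.64e-12, limma) and 4.00 (SE 0.07, adjusted p = 9.65e-18). Under every alternative run for these 2 comparisons, the rises of the 7 genes stayed between 1.43 and 4.43 (first experiment) and between 1.53 and 4.06 (second).

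The cytosolic folate genes did not rise. SHMT1, the cytosolic serine hydroxymethyltransferase, was at 5.65 and 5.59 in regular and 5.28 and 5.31 in ischemic libraries of the first experiment. With DMSO it was at 5.78 and 5.84 in regular and 5.66 and 5.72 in ischemic libraries. It fell by 0.33 in the first experiment (SE 0.08, adjusted p = 0.00242, limma), and the value in the second was -0.12 (SE 0.06, adjusted p = 0.0853). MTHFD1, a cytosolic enzyme with dehydrogenase, cyclohydrolase and formate ligase activities, was at 7.83 in both regular and at 7.35 and 7.49 in ischemic libraries of the first experiment. With DMSO it was at 7.83 and 7.56 in regular and 7.64 and 7.66 in ischemic libraries, so the ischemic values lay between the regular ones. It fell by 0.41 in the first experiment (SE 0.07, adjusted p = 0.000182), and the value in the second was -0.05 (SE 0.07, adjusted p = 0.532), which became 0.08 without regular DMSO replicate 1. With an inhibitor in both cultures of the second experiment, MTHFD1 was lower in ischemic culture. The fall was 0.35 with VX745 (SE 0.07, adjusted p = 0.000159, limma) and 0.37 with MK25 (SE 0.07, adjusted p = 0.000114). The experiments were normalized separately, and the difference between them was not tested.

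**Figure D1:**
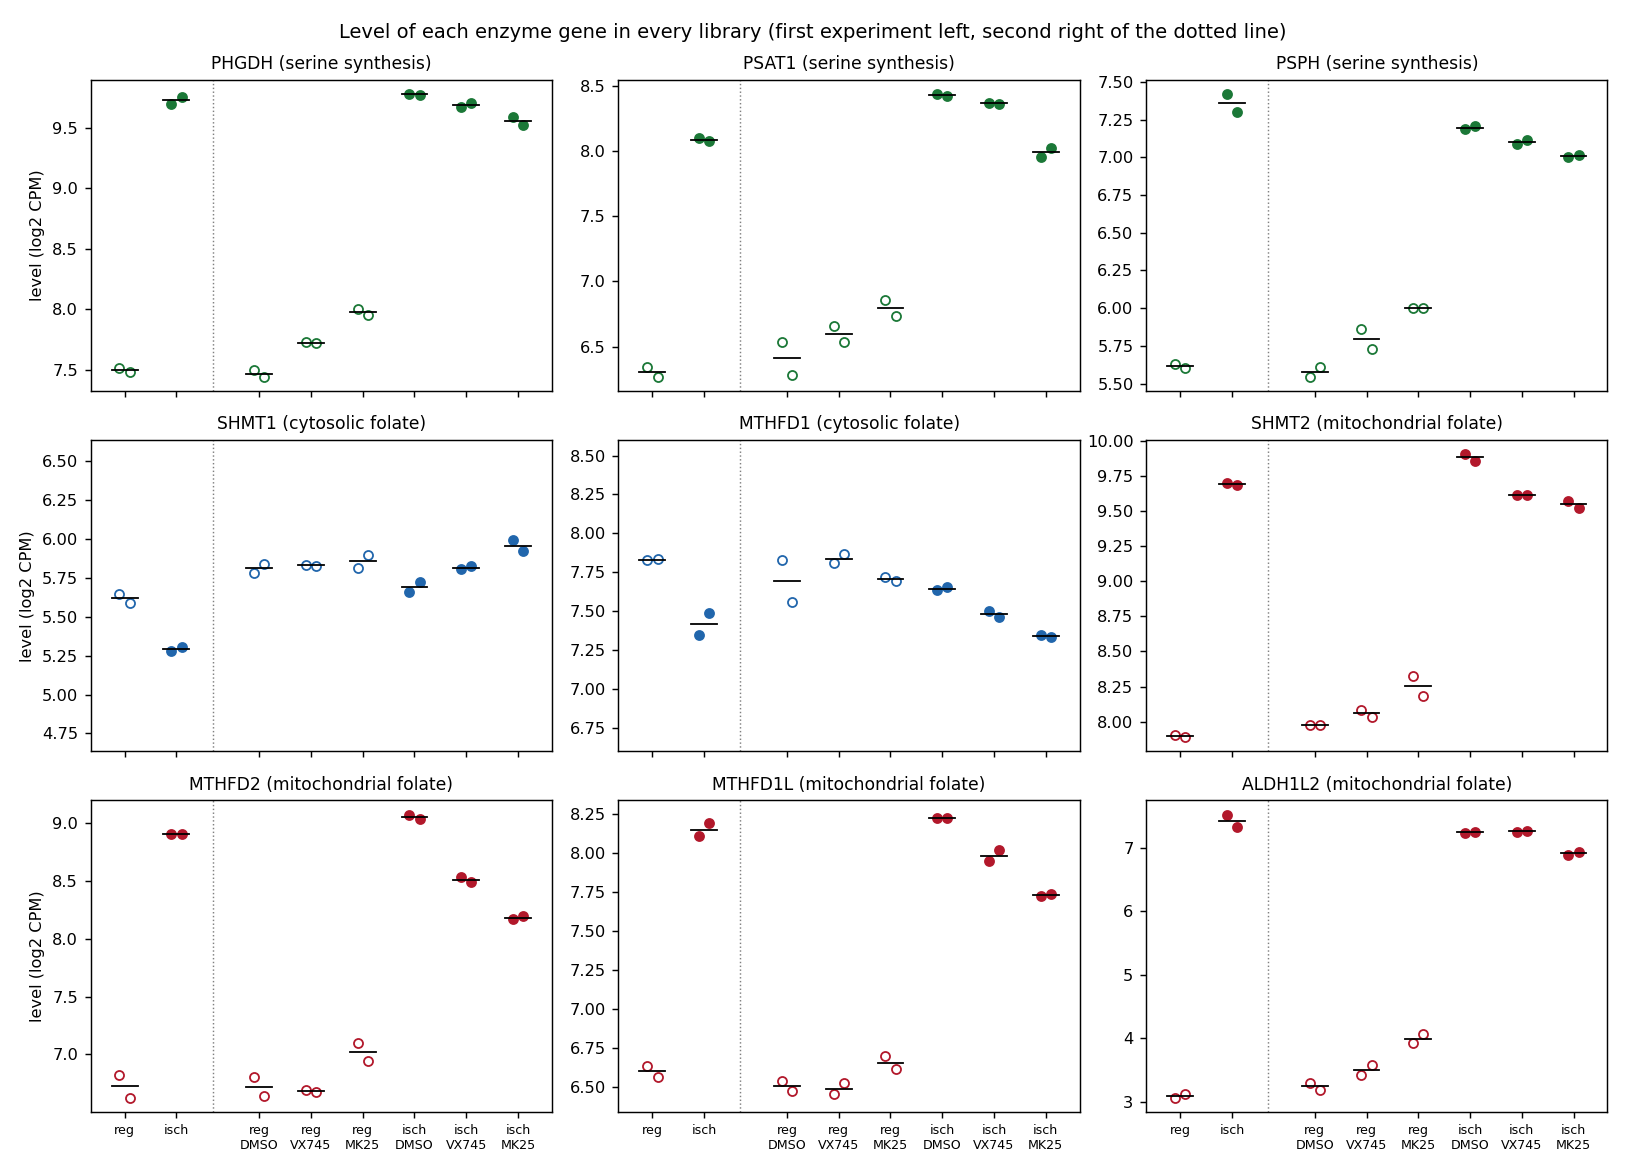
Each panel plots the level of a gene in log2 CPM for every library (points) with the group mean (line); open points are regular (reg) and filled points ischemic (isch) culture, and the dotted line separates the experiments. All ischemic libraries sit above all regular libraries of the same experiment for the serine synthesis and mitochondrial genes, whereas SHMT1 stays between 5.28 and 5.99. The share of all genes separated in this way was not counted.

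The library kit does not mark strand, so reads in exons shared with a gene on the opposite strand could not be told apart. MTHFD2 shares 1324 exon bases with SLC4A5, which was at 3.45 against 1.97 log2 CPM (ischemic against regular, first experiment). MTHFD1 shares 178 exon bases with ZBTB25 (4.00 against 2.77) and 1556 with a long noncoding RNA. SHMT1 shares 197 exon bases with SMCR8 (6.70 against 6.79). In ischemic culture SMCR8 rose by 0.365 with MK25 (adjusted p = 0.000262, limma) and was at -0.06 with VX745. Whether its reads contributed to the SHMT1 values was not tested. NDUFA4L2, next to SHMT2 with 33 shared bases, was not listed. By name, MTHFD2 has 7 annotated pseudogenes, PSAT1 has 4, and PSPH, SHMT1 and MTHFD1 have 1 each, so reads of these genes may have been split or shared. How multiply aligned reads were treated is not given in the sources used here.

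To compare the cytosolic and mitochondrial steps directly, the log2 difference of each enzyme pair was taken within every library. These differences are of CPM, before any correction for length. SHMT2 minus SHMT1 was 2.28 ± 0.03 (SD, n = 2) in regular and 4.40 ± 0.03 in ischemic culture of the first experiment. With DMSO the difference was 2.17 ± 0.04 in regular and 4.19 ± 0.08 in ischemic culture. The gain of SHMT2 over SHMT1 was therefore 2.12 and 2.02, far more than the SD between libraries. MTHFD2 minus MTHFD1 was -1.11 ± 0.14 and -0.97 ± 0.07 in regular culture of the first and second experiment (DMSO), and 1.49 ± 0.10 and 1.41 ± 0.04 in ischemic culture. MTHFD1L minus MTHFD1 was -1.23 ± 0.06 and -1.19 ± 0.14 in regular culture and 0.74 ± 0.04 and 0.58 ± 0.01 in ischemic culture. The mitochondrial gene gained on its cytosolic counterpart in each case. In all 3 pairs and both experiments, every ischemic library lay above every regular library. MTHFD1 serves in both MTHFD pairs, so these are not independent. How often other genes or pairs separate in this way was not counted. These differences are given as a description, with no p-value.

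Levels of different genes were compared per kilobase (kb) of the canonical transcript. SHMT2 was 5.69 ± 0.13 times the level of SHMT1 in regular and 24.8 ± 0.47 times in ischemic culture of the first experiment (CPM per kb ratio, SD, n = 2), and 5.27 ± 0.14 and 21.4 ± 1.15 times with DMSO. MTHFD2 was at 0.333 ± 0.03 of MTHFD1 in regular and 2.01 ± 0.14 in ischemic culture, and at 0.365 ± 0.02 and 1.90 ± 0.05 with DMSO. MTHFD1L was at 0.390 ± 0.01 of MTHFD1 in regular and 1.52 ± 0.04 in ischemic culture, and at 0.402 ± 0.04 and 1.37 ± 0.01 with DMSO. Hence the serine hydroxymethyltransferase transcripts were mostly mitochondrial in both cultures, and the order of MTHFD1 against MTHFD2 and MTHFD1L turned.

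**Figure D2:**
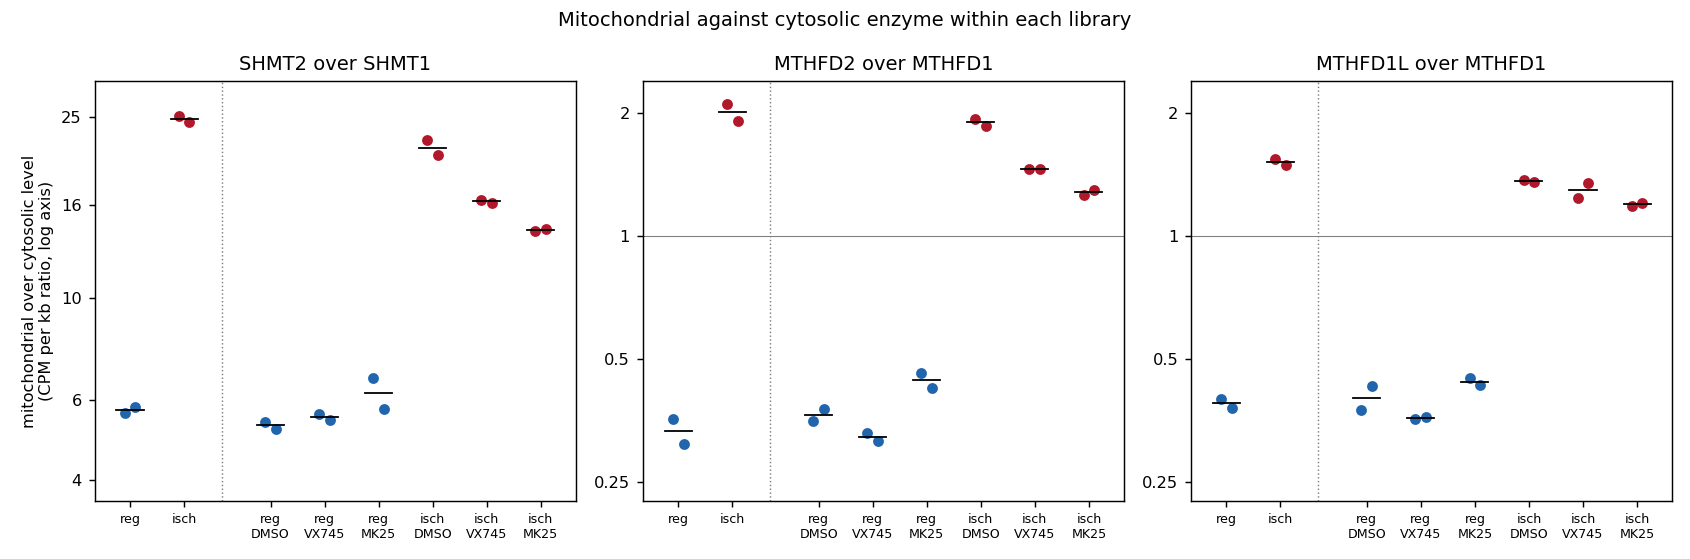
Points show the ratio of the mitochondrial to the cytosolic gene in CPM per kb (log axis) in each library, blue for regular (reg) and red for ischemic (isch) culture, with lines at the group means. SHMT2 over SHMT1 goes from 5.27 to 21.4 with DMSO and reaches 14.1 in ischemic MK25 libraries; the other 2 ratios cross 1 between the cultures.

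The order of the 9 levels per kb also changed. In regular culture of the first experiment, it ran from SHMT2 (110.3 ± 0.73 CPM per kb, SD, n = 2) and PHGDH (96.9 ± 1.68) through MTHFD1 (72.1 ± 0.24), PSAT1 (35.8 ± 1.28), MTHFD1L (28.1 ± 0.98), PSPH (24.8 ± 0.34), MTHFD2 (24.0 ± 2.26) and SHMT1 (19.4 ± 0.59) to ALDH1L2 (1.14 ± 0.03). Only PSPH and MTHFD2 overlapped between neighbours in this order. In ischemic culture it ran from PHGDH (453.9 ± 11.6) and SHMT2 (383.4 ± 2.05) through PSAT1 (123.2 ± 1.32), MTHFD2 (108.8 ± 0.26), PSPH (83.2 ± 4.90), MTHFD1L (82.5 ± 3.49), MTHFD1 (54.2 ± 3.68) and ALDH1L2 (23.2 ± 2.26) to SHMT1 (15.5 ± 0.21). PSPH and MTHFD1L overlapped here. MTHFD1 stood above PSAT1, PSPH, MTHFD2 and MTHFD1L in regular culture and below all of them in ischemic culture. With DMSO the regular order was the same, and MTHFD2 overlapped SHMT1 as well as PSPH; in ischemic DMSO libraries MTHFD1L stood above PSPH, and ALDH1L2 (20.5 ± 0.09) overlapped SHMT1 (20.4 ± 0.64).

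Next, VX745 was compared with DMSO in ischemic culture, which asks how p38α inhibition altered the ischemic levels. No member passed the rule of adjusted p under 0.05 and at least 1.5-fold, against 4.35% of all genes upward and 0.906% downward. At any size, 3 of the 4 mitochondrial genes fell and no other member passed, against 14% of all genes upward and 14.9% downward. MTHFD2 went from 9.07 and 9.04 with DMSO to 8.53 and 8.49 with VX745. It fell by 0.54 (SE 0.06, adjusted p = 1.09e-05, limma), short of 1.5-fold, and this was kept under every alternative run (-0.387 with quantile normalization, the value nearest 0). SHMT2 went from 9.90 and 9.86 to 9.62 and 9.61 and fell by 0.27 (SE 0.06, adjusted p = 0.0019), but the value was -0.07 with quantile normalization (adjusted p = 0.4). MTHFD1L went from 8.22 and 8.23 to 7.95 and 8.02 and fell by 0.24 (SE 0.05, adjusted p = 0.00342), and the value was -0.11 with quantile normalization (adjusted p = 0.142). The call was also lost without ischemic VX745 replicate 1 (highest adjusted p without a library 0.0629). The serine synthesis genes had values of -0.09 (PHGDH), -0.06 (PSAT1) and -0.09 (PSPH), each with an adjusted p of at least 0.223. ALDH1L2 was at 0.02 (SE 0.07), SHMT1 at 0.12 (SE 0.06) and MTHFD1 at -0.16 (SE 0.07).

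MK25 was compared with DMSO in ischemic culture in the same way. The DMSO libraries were those used for VX745, so the comparisons of the inhibitors with DMSO are not independent. MTHFD2 alone passed with at least 1.5-fold, downward, against 7.02% of all genes upward and 2.65% downward. At any size, 8 members fell and 1 rose, against 19.8% of all genes upward and 22% downward, and the median over the 9 members was -0.33. MTHFD2 was at 8.17 and 8.19 with MK25, below all ischemic DMSO and ischemic VX745 libraries. It fell by 0.87 (SE 0.06, adjusted p = 1.97e-08, limma) and by 0.672 with quantile normalization. MTHFD1L was at 7.72 and 7.74 and fell by 0.50 (SE 0.05, adjusted p = 2.5e-06), and ALDH1L2 was at 6.89 and 6.94 and fell by 0.33 (SE 0.07, adjusted p = 0.00153). PSAT1 was at 7.96 and 8.03, against 8.44 and 8.42 with DMSO, and fell by 0.44 (SE 0.07, adjusted p = 0.000141). MTHFD1 was at 7.35 and 7.33 and fell by 0.30 (SE 0.07, adjusted p = 0.00163). SHMT1 was the member that rose, from 5.66 and 5.72 to 5.99 and 5.92, by 0.26 (SE 0.06, adjusted p = 0.00209). With quantile normalization PSAT1 was at -0.276 (adjusted p = 0.00796) and MTHFD1 at -0.176 (adjusted p = 0.0438). The falls of SHMT2, PHGDH and PSPH were lost under that scaling. SHMT2 fell by 0.34 (SE 0.06, adjusted p = 0.000142) and was at -0.09 with quantile normalization (adjusted p = 0.227). PHGDH fell by 0.22 (SE 0.05, adjusted p = 0.0022) and was at 0.03 with quantile normalization, with the opposite sign (adjusted p = 0.708). PSPH fell by 0.19 (SE 0.06, adjusted p = 0.0146), was at -0.09 with quantile normalization (adjusted p = 0.252) and missed the threshold when any of the 4 libraries compared was left out (highest adjusted p 0.0816).

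The inhibitors were also compared with each other in ischemic culture. The methods list VX745 and MK25 at different concentrations, so this compares the groups rather than matched doses. No member reached 1.5-fold, against 1.75% of all genes higher and 2.2% lower with MK25. At any size, 4 members were lower with MK25 than with VX745, against 8.22% of all genes higher and 10.2% lower. The difference, MK25 minus VX745, was -0.37 for PSAT1 (SE 0.07, adjusted p = 0.00131, limma). ALDH1L2 was at -0.35 (SE 0.07, adjusted p = 0.00235), MTHFD2 at -0.33 (SE 0.06, adjusted p = 0.00103) and MTHFD1L at -0.25 (SE 0.05, adjusted p = 0.00319, and 0.0674 without ischemic VX745 replicate 2). For PHGDH (-0.14, SE 0.05), PSPH (-0.09, SE 0.06) and SHMT2 (-0.07, SE 0.06), no difference between the inhibitors was detected.

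In regular culture no member fell with either inhibitor at an adjusted p under 0.05. With VX745, no member passed with at least 1.5-fold, against 0.0642% of all genes upward and 0.0357% downward, which is 9 and 5 genes. At any size PHGDH rose, against 0.178% of all genes upward and 0.157% downward, from 7.49 and 7.44 to 7.73 and 7.72, by 0.26 (SE 0.05, adjusted p = 0.0396, limma). That call was lost in 12 of 19 alternatives, including the fit of recovered reads, with an adjusted p of up to 0.281. With MK25, ALDH1L2 passed with at least 1.5-fold, against 1.88% of all genes upward and 0.606% downward. At any size, 6 members rose and none fell, against 7% of all genes upward and 5.21% downward.

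ALDH1L2 was at 3.92 and 4.07 with MK25 in regular culture, against 3.30 and 3.19 with DMSO, and rose by 0.75 (SE 0.07, adjusted p = 1.84e-06, limma). PHGDH was at 8.0 and 7.95 and rose by 0.51 (SE 0.05, adjusted p = 2.3e-06). PSPH was at 6.0 in both libraries and rose by 0.42 (SE 0.06, adjusted p = 9.92e-05). The 3 genes of serine synthesis all rose, since PSAT1 rose by 0.39 (SE 0.07, adjusted p = 0.00191). SHMT2 rose by 0.28 (SE 0.06, adjusted p = 0.00287). MTHFD2 rose by 0.30 (SE 0.06, adjusted p = 0.00413), and this call was lost with only the groups compared in the fit, without regular DMSO replicate 2 and without regular MK25 replicate 1 (adjusted p up to 0.0674). MTHFD1L (0.15, SE 0.05), SHMT1 (0.05, SE 0.06) and MTHFD1 (0.02, SE 0.07) did not pass. CA9 was at 2.22 ± 0.11 (SD, n = 2) in regular MK25 libraries, against -0.75 ± 1.44 in regular DMSO and -1.69 ± 0.45 in regular VX745 libraries, and VEGFA was at 6.37 ± 0.04 against 5.44 ± 0.03 and 5.38 ± 0.08. These hypoxia-responsive genes thus stood higher in the same libraries, and their part in the rises was not tested.

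**Figure D3:**
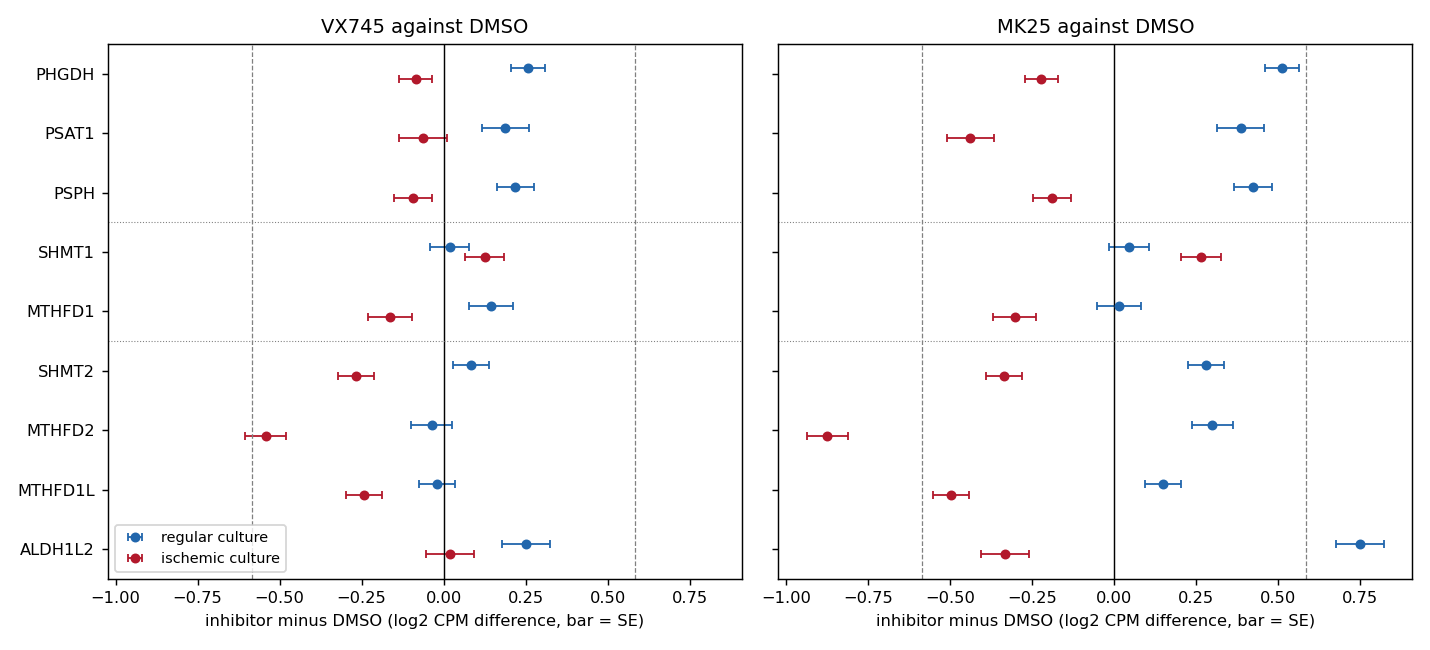
Points show inhibitor minus DMSO as a log2 CPM difference for each gene, blue in regular and red in ischemic culture, with bars for the SE and dashed lines at a fold change of 1.5. With MK25, all 7 serine synthesis and mitochondrial genes lie to the right of 0 in regular and to the left in ischemic culture (PHGDH moves to 0.03 in ischemic culture with quantile normalization), and MTHFD2 in ischemic culture (-0.87) and ALDH1L2 in regular culture (0.75) pass the dashed lines.

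Whether the effect of an inhibitor differed between the cultures was tested as an interaction, the inhibitor effect in ischemic culture minus that in regular culture. A lower effect here means a more negative one, such as 0.30 in regular and -0.87 in ischemic culture for MTHFD2 with MK25. For MK25, 8 of 9 members had a lower effect in ischemic culture (adjusted p under 0.05, any size) and none a higher one, against 13.9% of all genes lower and 10.5% higher. The difference was -1.17 for MTHFD2 (SE 0.09, adjusted p = 1.05e-07, limma) and -1.08 for ALDH1L2 (SE 0.10, adjusted p = 1.95e-06). It was -0.82 for PSAT1, -0.73 for PHGDH, -0.65 for MTHFD1L, -0.62 for SHMT2, -0.61 for PSPH and -0.32 for MTHFD1. The MTHFD1 call was lost in 6 of 19 alternatives, which were quantile normalization (-0.204, adjusted p = 0.128), no variance trend and leaving out ischemic DMSO replicate 2, ischemic MK25 replicate 2, regular DMSO replicate 2 (-0.187) or regular MK25 replicate 1. SHMT1 had 0.22 (SE 0.09, adjusted p = 0.0711). For VX745, 5 of 9 members had a lower effect in ischemic culture, against 6% of all genes lower and 5.78% higher. Of these, MTHFD2 at -0.51 (SE 0.09, adjusted p = 0.00211) was kept under every alternative run, and with quantile normalization it was the only member left. PHGDH, PSPH, MTHFD1 and SHMT2 were between -0.31 and -0.35. Of 19 alternatives each, the call was lost in 12 for MTHFD1, 7 for PSPH, 3 for SHMT2 and 1 for PHGDH. Both interactions use the same DMSO libraries, so those of VX745 and MK25 are not independent.

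The difference between the cultures is given next for each treatment. The ischemic rise of MTHFD2 was 2.33 with DMSO, 1.83 with VX745 and 1.16 with MK25 (log2 differences, SE 0.06 each). That of ALDH1L2 was 4.00, 3.77 and 2.92 (SE 0.07 each), and that of PHGDH 2.31, 1.97 and 1.58 (SE 0.05 each). For ALDH1L2 the change with VX745 did not pass as an interaction (-0.23, adjusted p = 0.153, limma). All 7 genes still lay above their regular levels in every ischemic library with either inhibitor, and the share of all genes that do so was not counted. Within libraries, the gain of SHMT2 over SHMT1 went from 2.02 with DMSO to 1.57 with VX745 and 1.19 with MK25 (pooled SD of the libraries 0.06, 0.03 and 0.11), and that of MTHFD2 over MTHFD1 went from 2.38 to 2.18 and 1.53 (pooled SD 0.06, 0.03 and 0.06). The gain of MTHFD1L over MTHFD1 was 1.77 with DMSO, 1.85 with VX745 and 1.44 with MK25 (pooled SD 0.10, 0.06 and 0.03). In ischemic culture, MTHFD2 remained above MTHFD1 per kb in all libraries, at 1.90 ± 0.05 times with DMSO, 1.46 ± 0.0033 with VX745 and 1.28 ± 0.03 with MK25 (SD, n = 2).

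**Figure D4:**
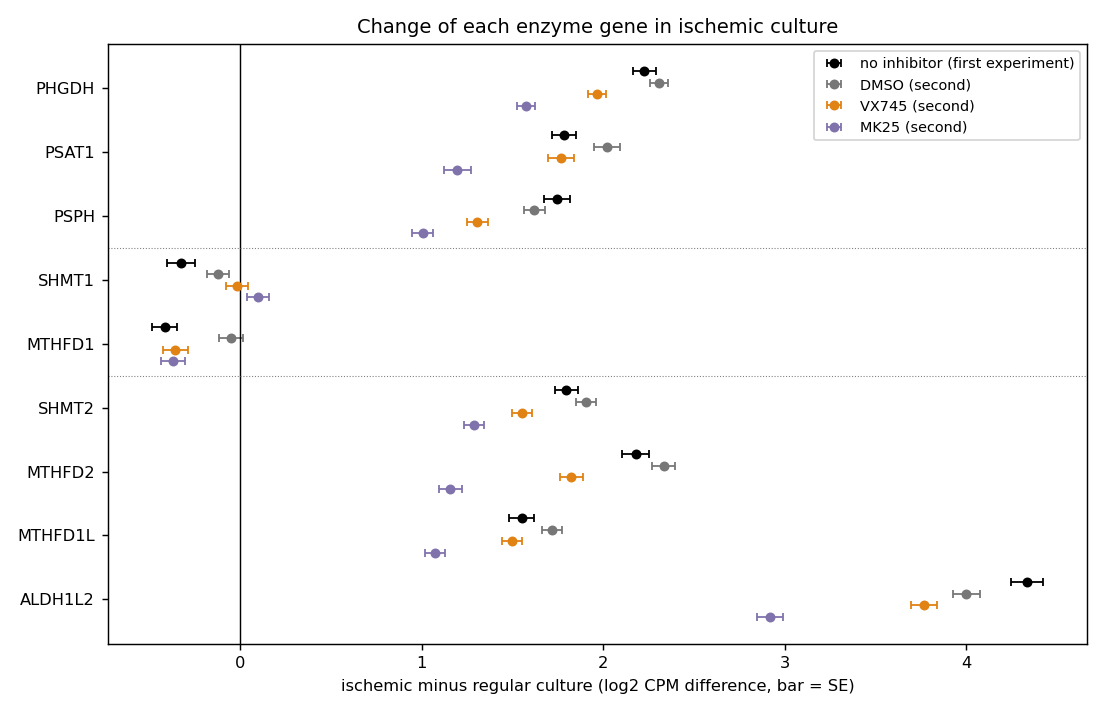
Points show ischemic minus regular culture as a log2 CPM difference for each gene (bars: SE), without inhibitor in the first experiment and with DMSO, VX745 or MK25 in the second. The 7 serine synthesis and mitochondrial genes lie between 1.01 and 4.33 in all 4 contrasts, with MK25 the lowest for each, and SHMT1 and MTHFD1 lie between -0.41 and 0.10.

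ATF4 RNA itself was higher in ischemic culture, at 10.04 and 9.99 against 8.52 and 8.43 log2 CPM in the first experiment and at 10.29 and 10.31 against 8.60 and 8.45 with DMSO. It rose by 1.54 (adjusted p = 1.6e-09, limma) and 1.77 (adjusted p = 6.6e-14). In ischemic culture it fell by 0.35 with VX745 (adjusted p = 0.00049) and by 0.42 with MK25 (adjusted p = 4.3e-05), and in regular culture it rose by 0.47 with MK25 (adjusted p = 6e-05), with an interaction of -0.89. MYC, which encodes an E-box binding factor, rose by 1.75 and 1.93 in ischemic culture, fell by 1.20 with MK25 (adjusted p = 8.3e-09) and was at 0.06 with VX745 there. Single genes were followed under the alternatives for the 9 members only. Whether the ATF4 and MYC values hold with quantile normalization was therefore not tested.

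Of the wider list of 44 genes of folate uptake, folate reactions, the methionine cycle, serine use and their regulators, the first table listed 37 and the second 36. In ischemic culture 9 rose and 10 fell by at least 1.5-fold in the first experiment, against 21.3% of all genes upward and 20.2% downward. The median change was -0.13. With DMSO 8 rose and 7 fell, against 18.1% of all genes upward and 17.9% downward, with a median of -0.03. The wider list thus moved in both directions, as did all genes. Its difference from the 7 serine synthesis and mitochondrial genes was not tested. Of the folate transporter genes, SLC46A1 (the proton-coupled transporter) fell by 1.04 and 1.12 and SLC25A32 (the mitochondrial carrier) by 0.60 and 0.60. MTRR, methionine synthase reductase, fell by 1.01 and 0.99, and MTFMT, the mitochondrial enzyme that formylates the initiator methionyl-tRNA, fell by 1.45 and 1.07. SFXN3, a mitochondrial serine transporter, rose by 1.23 and 1.11. The transsulfuration genes CTH and CBS, which use serine to make cysteine, rose by 2.84 and 2.82 and by 3.63 and 3.27. SDSL, a serine dehydratase-like gene, rose by 1.39 and 1.28.

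With VX745 in ischemic culture, the wider list gave 1 rise and no fall of at least 1.5-fold, against 4.35% of all genes upward and 0.906% downward. With MK25 there it gave 2 rises and 4 falls, against 7.02% of all genes upward and 2.65% downward. CTH fell by 0.77 with MK25 (adjusted p = 8.8e-05, limma) and rose by 0.66 with it in regular culture (adjusted p = 0.0016), the same directions as in PSAT1 and ALDH1L2. SLC25A32 fell by 0.61 with MK25 in ischemic culture (adjusted p = 0.00015). SLC46A1 rose by 0.61 with VX745 (adjusted p = 0.016) and by 0.59 with MK25 (adjusted p = 0.013) in ischemic culture. These genes of the wider list were not followed under the alternatives.

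The patterns of the members over the 8 groups were compared by the root mean square difference of group means, each experiment centred on its own mean (log2 units, a description with no test). The closest members were PSAT1 of serine synthesis and mitochondrial SHMT2 (0.0907), followed by SHMT2 and MTHFD1L (0.109), both mitochondrial. SHMT1 and SHMT2, which catalyze the same reaction, differed by 0.886. Among 1797 candidate genes, those most like MTHFD2 were GARS1 (0.098), which encodes glycyl-tRNA synthetase, CSRNP1 (0.131) and MAFF (0.133), the latter being a small MAF transcription factor. GARS1 rose by 2.01 and 2.10 in ischemic culture, and fell by 0.58 with MK25 there. For SHMT1, the nearest of 1798 candidates were PRRT2 (0.215), CLIP2 (0.229) and GNG7 (0.229). Candidates had to range over at least 1, which SHMT1 and MTHFD1 themselves do not, so genes as flat as SHMT1 were not searched.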

How the data were processed

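The authors aligned paired-end reads from LN229 libraries to GRCh38 with HISAT2, normalized gene counts with edgeR and deposited log2 normalized CPM in 2 tables of Entrez identifiers. The counting program and the strand setting are not given in the sources used here, and the submitters' processing notes give no versions. The log2 values were used as deposited, with no further normalization or pseudocount. Symbols were matched for 99.4% and 99.31% of identifiers. Whole reads were recovered from the values (100% whole within 0.05 of a read). Depth was 20122017 to 37562668 reads on listed genes per library, and the offset of about 2 reads slightly compresses low values.

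Differences came from limma (3.58.1, R 4.3.3) with 1 mean per group, a variance trend and two-sided p-values adjusted by Benjamini-Hochberg over all genes of a table, 13559 or 14024. limma replaced the count test of the methods because the deposited unit is log2. A call needed an adjusted p under 0.05 together with a 1.5-fold difference or more, the size that the methods use for pathway analysis. Interactions were called at any size, and calls at any fold change are named as such. The script for the fit was tested on simulated data. Groups followed the labels, and each table was tested alone. MTHFD2L is named outside the rule that follows. Named genes were the 9 members, ATF4, up to 2 genes of each role of the wider list called in most of the 7 pairwise comparisons, the 3 genes most like MTHFD2 and SHMT1 (mean log2 of at least 3, range of at least 1), and CA9 and VEGFA. A gene that this rule names is not reported here. The members and lists were chosen with earlier results of these data known. Transcript lengths (1 canonical transcript per gene), overlapping exons and pseudogene names came from GENCODE release 44, and gene positions and promoters from RefSeq on GRCh38.p14. Alternatives were other fold thresholds, an unadjusted p, median centring, quantile normalization, no variance trend, a filter on low values, only the groups compared, voom on recovered reads, a replicate block and leaving out each library. Figures were drawn with matplotlib 3.10.9 in Python 3.11.15.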

Additional observations from a re-analysis of the deposited data

Results flagged for a closer look

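These results were singled out because the effect of an inhibitor differed between ischemic and regular culture by a test of the difference itself (limma interaction, adjusted over all 14024 genes, 2 libraries per group). They are given as inhibitor effect in ischemic minus that in regular culture, in log2 units, with adjusted p-values. With MK25, the differences were -1.17 for MTHFD2 (adjusted p = 1.05e-07), -1.08 for ALDH1L2 (1.95e-06), -0.82 for PSAT1 (2.85e-05), -0.73 for PHGDH (2.59e-06), -0.65 for MTHFD1L (1.98e-05), -0.62 for SHMT2 (3.69e-05), -0.61 for PSPH (5.61e-05) and -0.32 for MTHFD1 (0.0208). With VX745, they were -0.51 for MTHFD2 (0.00211), -0.35 for SHMT2 (0.00941), -0.34 for PHGDH (0.0068), -0.31 for PSPH (0.0201) and -0.31 for MTHFD1 (0.0444). Of these VX745 calls, only that of MTHFD2 was kept under every alternative run. The same DMSO libraries served for both inhibitors, so their results are not independent. The regular DMSO libraries of MTHFD1 lay apart, at 7.83 and 7.56 log2 CPM, and without regular DMSO replicate 2 its differences were -0.17 with VX745 and -0.19 with MK25 and did not pass. The share of all genes called lower was 13.9% for MK25 and 6% for VX745.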

How the results depend on the processing

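The counts of members called for ischemic against regular culture were 7 under every alternative run in both experiments, except 9 at any fold change in the first. Over 1800 member values under alternatives, 1759 kept their direction and side of the threshold, 29 lost the call, 3 gained it and 9 changed sign. With any fold change, the counts became 3 for VX745 and 9 for MK25 in ischemic culture, 1 for VX745 and 6 for MK25 in regular culture, and 4 for MK25 against VX745. With a fold change of at least 2, they became 0 for MK25 in either culture. For the VX745 interaction, 5 members became 8 with an unadjusted p, 1 with quantile normalization, 2 without a variance trend, and 2 to 7 when leaving out libraries; it was 2 without ischemic DMSO replicate 1 and 3 without ischemic DMSO replicate 2, either ischemic VX745 replicate or regular VX745 replicate 1. With quantile normalization, signs changed in ischemic culture for PHGDH (0.10) and PSAT1 (0.076) with VX745 and for PHGDH with MK25 (0.027); the cause was not tested. When leaving out each library, signs changed for MTHFD1 in ischemic against regular DMSO (-0.18 to 0.083), for SHMT1 (-0.011 to 0.048), MTHFD2 (-0.12 to 0.048) and MTHFD1L (-0.054 to 0.017) with VX745 and for MTHFD1 with MK25 (-0.12 to 0.15), the last 4 in regular culture. All of these contrasts except PHGDH with MK25 were without a call. With recovered reads, the differences between mitochondrial and cytosolic genes moved by less than the spread between libraries. Those reads were derived from the same values by removing an offset of about 2 reads. The differences could therefore hardly move, and this is no separate check.

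Counts over all genes moved as follows. At any fold change they were 9540 of 13559 in the first experiment and 9759 with DMSO (5620 and 5043 with 1.5-fold, 2763 and 2405 with 2-fold). In ischemic culture they were 4051 with VX745 (737 and 193), 5850 with MK25 (1356 and 384) and 2580 for MK25 against VX745 (555 and 175), and in regular culture 47 with VX745 (14 and 6) and 1712 with MK25 (349 and 116). With an unadjusted p they were 240 and 559 in regular culture and 3813 for the VX745 interaction (1653 otherwise, 1026 with quantile normalization and 594 without a variance trend). For VX745 in regular culture they were 5 without a variance trend, with only the groups compared or with voom.

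The replicate number as a block changed no count of members called (7 in the first experiment, 8 for the MK25 interaction, 5 for the VX745 interaction). Same-numbered libraries deviated with a correlation of 0.271 in the first experiment and of -0.266 to 0.325 over 15 pairs of groups in the second, 4 of them over 0.1, so the numbers were not taken as pairing. Libraries left out of a group of 2 leave 1 that is assumed to vary like the other groups.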
